A study of Homo sapiens with 2 samples.

Results

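The SLAM family is a set of immune cell receptors, here including CD48, itself a member and the ligand of the receptor CD244, and the adaptors that carry their signal. The rule named 10 genes: SLAMF7, CD48, LY9, SLAMF1, SLAMF6, CD84, CD244, SLAMF8, SH2D1A and SH2D1B. A gene received a value from probe sets that the array annotation assigns to that symbol alone, and 9 of the 10 had 1 such probe set each, among 18377 genes in all. SLAMF8 had none and is not described by level. The set was chosen by the HIF2A minus vector control difference of SLAMF7 in these same arrays, so the differences of its members are given as a description.

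Total RNA was measured on 2 Affymetrix whole-transcript arrays, both of the established human myeloma line LP-1. The HIF2A array is of LP-1 cells infected with the vector pRUF-IRES-GFP holding the full-length cDNA of human HIF-2α, which they overexpress stably. HIF-2α is the product of EPAS1 and the oxygen-sensitive subunit of a transcription factor. The vector control array is of LP-1 cells with pRUF-IRES-GFP alone, so both cell populations carry the vector backbone. The labels give no oxygen level, time in culture or number of clones. With 1 array per group there is no replicate check, no SD and no test, and every difference below is that of 1 array from another, in log2 units as HIF2A minus vector control.

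SLAM receptors are single-pass proteins of the immunoglobulin superfamily on blood cells. Most bind a copy of themselves on a neighbouring cell. CD48 is anchored by a lipid and has no cytoplasmic tail, and its partner is CD244, an activating or inhibitory receptor of natural killer (NK) cells. The tails of most other members hold tyrosine switch motifs that bind the small adaptors SAP, encoded by SH2D1A, and EAT-2, encoded by SH2D1B. In the absence of these adaptors the motifs can bind phosphatases. SAP links the receptors to Src family kinases. On plasma cells SLAMF7, also called CS1 or CD319, is abundant and is the target of the therapeutic antibody elotuzumab, and LY9, also called CD229, is a further antigen of myeloma cells.

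The signal of SLAMF7 was 4.24 in HIF2A cells and 6.63 in vector control cells. On the linear scale these signals were 18.9 and 99.0, which makes SLAMF7 5.24-fold lower in the HIF2A array. In bulk RNA, fewer cells with the transcript and less transcript per cell cannot be told apart, and the probe set sums the gene's transcripts, so isoforms were not resolved. The difference of -2.39 was the lowest but 1 of the 11469 genes whose brighter array reached 4.01, the filter on dim signals, set at the median probe set's average of both arrays. The signal in the HIF2A array remained above 3.58, the 95th percentile of 359 olfactory receptor genes, which stand here for background. It was also near the filter, and with 32 added to the linear signals the difference was -1.36. The size of the fold thus depends on how background is treated. By rank, which does not depend on scaling, SLAMF7 exceeded 45.6% of genes in the HIF2A array and 85.4% in the vector control array.

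CD48 had 6.60 in the HIF2A array and 6.69 in the vector control array, a difference of -0.09. The gene of this ligand was thus measured well above the background level in both arrays, and its 2 signals were 1.06-fold apart. For comparison, the robust SD of the differences over all genes past the filter, a scaled median absolute deviation, was 0.34, and their median was 0.03. The differences of CD48 and SLAMF7 were 2.30 log2 units apart.

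LY9, the gene of CD229, had 3.74 in the HIF2A array and 3.93 in the vector control array. Both values lay above the olfactory receptor level and under the filter, and the difference was -0.19, within the robust SD.

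The other receptors were at background. SLAMF1, the receptor that measles virus uses on lymphocytes, had signals of 2.77 in the HIF2A array and 2.87 in the vector control array. SLAMF6, a receptor of T, B and NK cells, had 2.90 in the HIF2A array and 2.69 in the vector control array. CD84, a self-binding receptor of B cells, platelets and other blood cells, had 2.99 in the HIF2A array and 2.77 in the vector control array. All 3 genes were under the 95th percentile of olfactory receptor genes in both arrays, 3.58 in the HIF2A array and 3.59 in the vector control array, so no fold is given. CD244, the receptor for CD48, was likewise under it, with 2.89 in the HIF2A array and 2.62 in the vector control array.

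Both adaptors were at background too. SH2D1A, the gene of SAP, which is mutated in X-linked lymphoproliferative disease, had 2.95 in the HIF2A array and 3.05 in the vector control array. SH2D1B, the gene of EAT-2, had 2.58 in the HIF2A array and 2.91 in the vector control array. A signal at this level does not show that a transcript is absent, only that the probe set was not brighter than those of genes taken as silent.

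Of the 9 members, 2 passed the filter (SLAMF7 and CD48), 7 were dim in both arrays and 6 of these lay under the olfactory receptor level in both. A difference of 2-fold or more was seen for 1 member, SLAMF7, which was lower in HIF2A cells, and for 0 members in the other direction. Over all 18377 genes 0.473% were 2-fold or more lower and 0.441% higher, and over the genes past the filter 0.732% and 0.706%. Since SLAMF7 was chosen for this contrast, nothing is read from its count. The 8 members other than SLAMF7 had differences from -0.33 to 0.27, with a median of -0.10 (median over all genes 0). Of these 8, 0 were as much as 1.5-fold apart, where 3.37% of all genes were at least 1.5-fold lower and 3.81% higher. As 6 of them lay under the olfactory receptor level and LY9 under the filter, nothing is read from this count either.

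**Figure D1:**
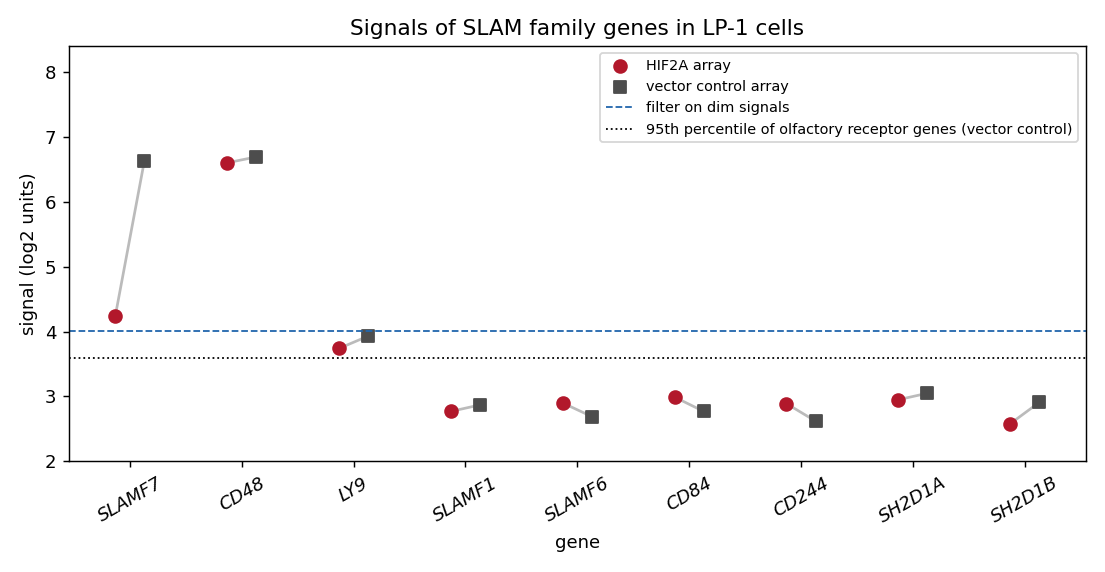
Signals of the 9 SLAM family genes with a probe set, in log2 units, with the HIF2A array as a circle and the vector control array as a square for each gene, the filter on dim signals as a dashed line and the 95th percentile of olfactory receptor genes in the vector control array as a dotted line. SLAMF7 stands at 4.24 (HIF2A) and 6.63 (vector control), CD48 at 6.60 (HIF2A) and 6.69 (vector control), and 6 genes lie under the dotted line in both arrays.

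**Figure D2:**
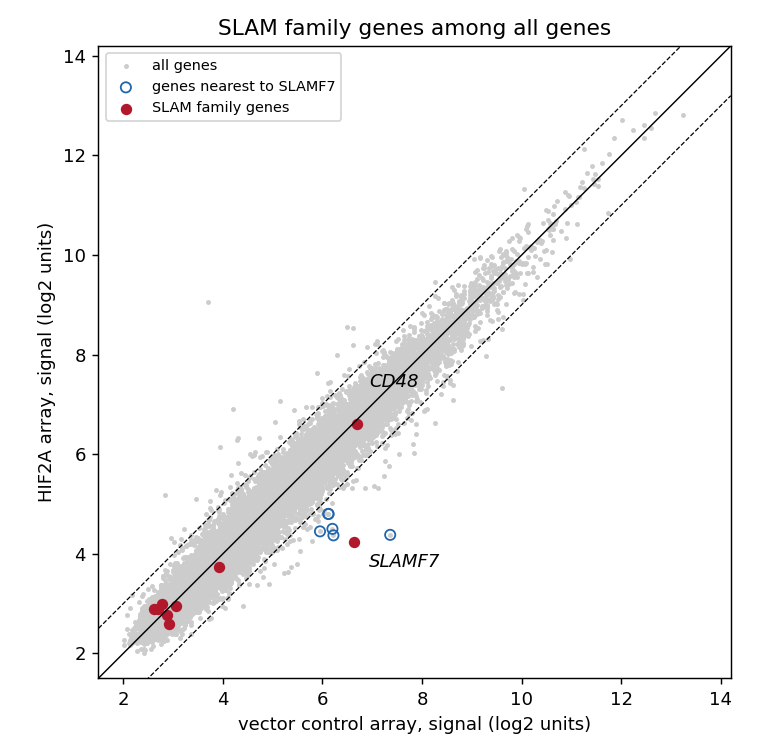
Signal in the HIF2A array against signal in the vector control array, in log2 units, for 18377 genes (grey), SLAM family genes (filled) and the genes nearest to SLAMF7 (open circles), with equality as a solid line and a 2-fold difference as dashed lines. SLAMF7 lies below the lower dashed line and the other SLAM family genes lie between the dashed lines.

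The receptor genes other than SLAMF8 form a cluster on chromosome 1. In RefSeq order the measured genes run SLAMF6, CD84, SLAMF1, CD48, SLAMF7, LY9 and CD244, with no other measured gene between them. Along that order the differences were 0.21, 0.22, -0.10, -0.09, -2.39, -0.19 and 0.27. Only CD48 and SLAMF7 of these genes passed the filter, so the small differences of the others are those of dim signals. The direct neighbours of SLAMF7 on either side, CD48 and LY9, differed by less than the robust SD. The nearest genes past the filter outside the family were NCSTN and VANGL2 on one side, with differences of 0.27 each, and USF1 and ARHGAP30 on the other, with -0.41 and -0.10. NCSTN encodes the nicastrin subunit of gamma-secretase, VANGL2 a planar polarity protein, and USF1 a transcription factor that binds E-boxes. Over the 20 genes past the filter on each side of the cluster, 40 in all, the median difference was 0, with 20 lower and 20 higher in the HIF2A array. They ranged from -0.63 at DUSP12 to 0.56 at USP21, and 0 of the 40 were at least 2-fold apart in either direction. At the background of 0.732% lower and 0.706% higher among genes past the filter, such a count is not particular to the locus. SH2D1B lies outside the cluster on chromosome 1, and its 40 neighbours had a median of 0.03. They overlap with the 40 above, with DUSP12 again the lowest at -0.63, so they are not a separate region. SH2D1A lies on chromosome X, where its 40 neighbours had a median of -0.10 and 1 of them, RAB33A, was at least 2-fold lower, at -1.08, against the same background of 0.732%. DUSP12, USP21 and RAB33A were named after their values were seen.

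**Figure D3:**
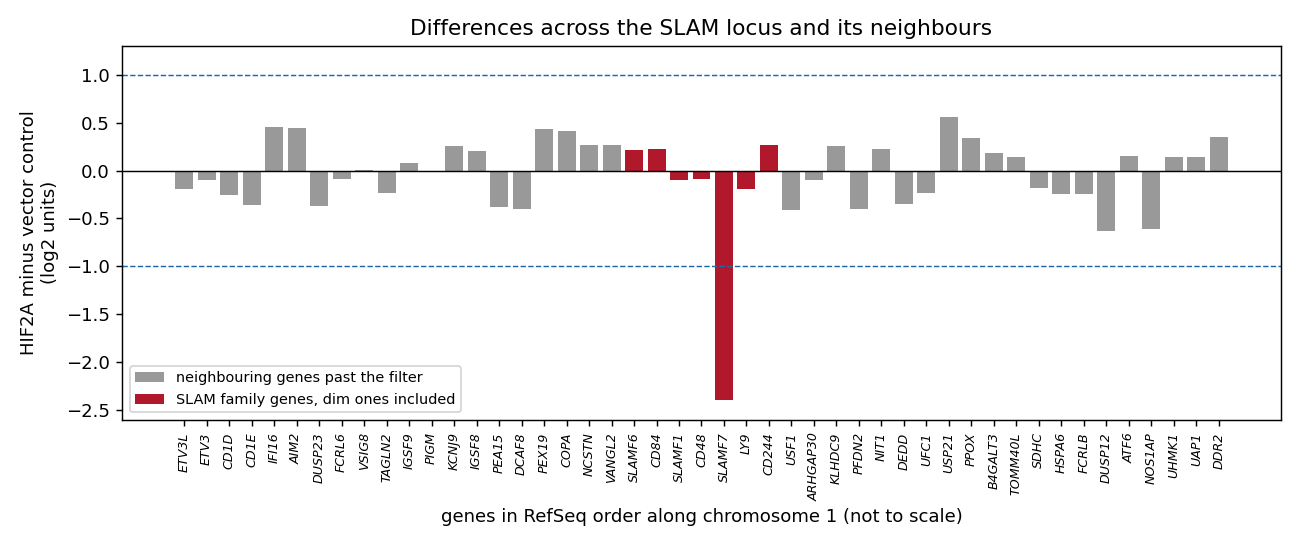
HIF2A minus vector control difference in log2 units for the 7 measured SLAM family genes of the cluster (coloured) and 20 genes past the filter on each side (grey), in RefSeq order along chromosome 1 and not to scale. Dashed lines mark a 2-fold difference. SLAMF7 at -2.39 is the only bar beyond them among the 47 genes drawn. The coloured genes other than SLAMF7 and CD48 were under the filter.

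HIF dimers bind the hypoxia response element, so the stretch before the start site of 7 of the 10 genes was searched for the core letters of that element, with sequences from RefSeq on GRCh38.p14. These genes were CD48, SLAMF1, SLAMF6, CD244, SLAMF8, SH2D1A and SH2D1B. SLAMF7, LY9 and CD84 had no sequence in the promoter set used and were not searched. The 250 bases before the start were read on both strands for ACGTG and GCGTG, the first of which is also part of the E-box CACGTG. One or the other occurred in 43.2% of 35116 promoters, ACGTG in 18.5% and GCGTG in 32.2%, and in 2 of the 7 genes. These were SLAMF8, with ACGTG on both strands, and SLAMF6, with GCGTG on the opposite strand. The windows of CD48, the member bright in both arrays, and of SLAMF6, a member dim in both, are printed 5′ to 3′ on the minus strand of GRCh38.p14, with the match in capitals. That of CD48 is chr1:160711823-160712072 and holds no match, and that of SLAMF6 is chr1:160523256-160523505, where the match begins 47 bases before the start.
CD48: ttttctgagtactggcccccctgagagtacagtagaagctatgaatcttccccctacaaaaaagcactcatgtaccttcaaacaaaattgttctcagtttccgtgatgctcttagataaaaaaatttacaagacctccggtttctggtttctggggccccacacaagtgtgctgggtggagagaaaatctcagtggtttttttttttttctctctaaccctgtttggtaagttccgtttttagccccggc
SLAMF6: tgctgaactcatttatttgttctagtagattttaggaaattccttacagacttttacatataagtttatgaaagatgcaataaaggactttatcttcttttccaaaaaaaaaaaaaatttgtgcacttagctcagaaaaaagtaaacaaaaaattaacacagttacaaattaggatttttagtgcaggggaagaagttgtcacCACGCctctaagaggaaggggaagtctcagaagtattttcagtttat
A match describes these letters only. Among the searched members with a level, SLAMF6 was the one with a match, and it was at background in both arrays. As SLAMF7 was not searched, nothing is read from this about its difference.

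Genes that pass on signals from SLAM receptors were taken from a hand-written list of 25, of which 23 had a value and 19 passed the filter. Of the 19, 8 were higher and 11 lower in the HIF2A array. At least 2-fold apart were 0 of them, where 0.732% of all genes past the filter were that much lower and 0.706% higher. The list held 2 genes higher by 1.5-fold or more and 0 lower by as much, where 5.67% and 4.76% of all genes past the filter were. Their median was -0.06, against 0.03 over all genes past the filter. The kinase gene FYN, whose product SAP recruits to the receptors in lymphocytes, had 5.29 in the HIF2A array and 5.64 in the vector control array. The related kinase genes LCK and FGR had differences of -0.56 and -0.46, and all 3 were the lowest of the list. In the HIF2A array LCK was under the filter, at 3.86, and its difference was -0.20 with 32 added to the linear signals. The highest were INPPL1, which encodes the inositol phosphatase SHIP-2, and CBL, which encodes a ubiquitin ligase. INPPL1 had 7.01 in the HIF2A array and 6.20 in the vector control array, and CBL had 5.61 in the HIF2A array and 4.83 in the vector control array. VAV1, an exchange factor for Rac, followed with a difference of 0.47.

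Some phosphatase genes were picked out of this list after their values were seen. They were PTPN11, PTPN6 and INPP5D, whose products can bind tyrosine switch motifs, and PTPRC. INPPL1 is given above. PTPN11, the gene of SHP-2, had 7.27 in the HIF2A array and 7.33 in the vector control array, and PTPN6, the gene of SHP-1, had 4.07 in the HIF2A array and 3.86 in the vector control array. INPP5D, the gene of SHIP-1, had 3.59 in the HIF2A array and 3.27 in the vector control array, under the filter in both. PTPRC, which encodes the phosphatase CD45 that activates Src family kinases, had 2.47 in the HIF2A array and 2.70 in the vector control array, both at background.

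A short list held relatives of the family. CD2 and CD58 form a receptor and ligand pair of the same superfamily, and SLAMF9 is a short-tailed SLAM member. Of these 3, 1 passed the filter, CD58, with 4.72 in the HIF2A array and 5.01 in the vector control array. Of all 18377 genes 11469 passed it, and nothing is read from a count among 3 genes.

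CD48 is one of several surface molecules that NK cell receptors can bind. In a list of 22 such genes 20 had a value and 15 passed the filter, of which 6 were higher, 8 lower and 1 equal, with a median of -0.02 and 0 at least 2-fold apart. Of all genes past the filter 0.732% were that much lower and 0.706% higher, so a count of 0 among 15 is near the background. The list as written also holds PVRIG, which is a receptor and not a ligand. The highest were CLEC2D, BAG6 and PVR, with differences of 0.60, 0.33 and 0.30. In the vector control array CLEC2D was under the filter, at 3.86, and its difference was 0.22 with 32 added to the linear signals. CLEC2D encodes a ligand of the inhibitory receptor CD161, BAG6 one of NKp30, and PVR one of DNAM-1 and TIGIT. NECTIN2, the gene of another ligand of DNAM-1, had -0.48, MICA, of a ligand of NKG2D, -0.31, and CD58 -0.29.

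Of 19 other surface antigens of myeloma cells, 16 had a value and 9 passed the filter. Of the 9, 3 were higher and 6 lower, with a median of -0.23. At least 2-fold lower was 1 of them, TNFRSF17, the gene of BCMA, at -1.03, where 0.732% of all genes past the filter were, and its difference was -0.93, under 2-fold, with 32 added to the linear signals. CD47 and IL6R had -0.44 and -0.31. ITGB7 had the highest difference, 0.79, followed by CD28 at 0.36 and CD38 at 0.06. In the vector control array CD28 was under the filter, at 3.75. Of 18 transcription factors of plasma cells and B cells, 16 had a value and 13 passed the filter. Of the 13, 6 were higher and 7 lower, with a median of -0.08. At least 1.5-fold apart were 0 of them, where 4.76% of all genes past the filter were that much lower and 5.67% higher. They ranged from POU2F2 at -0.43, followed by POU2AF1 at -0.30 and IRF4 at -0.29, to MEF2C at 0.33, XBP1 at 0.34 and BACH2 at 0.45.

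**Figure D4:**
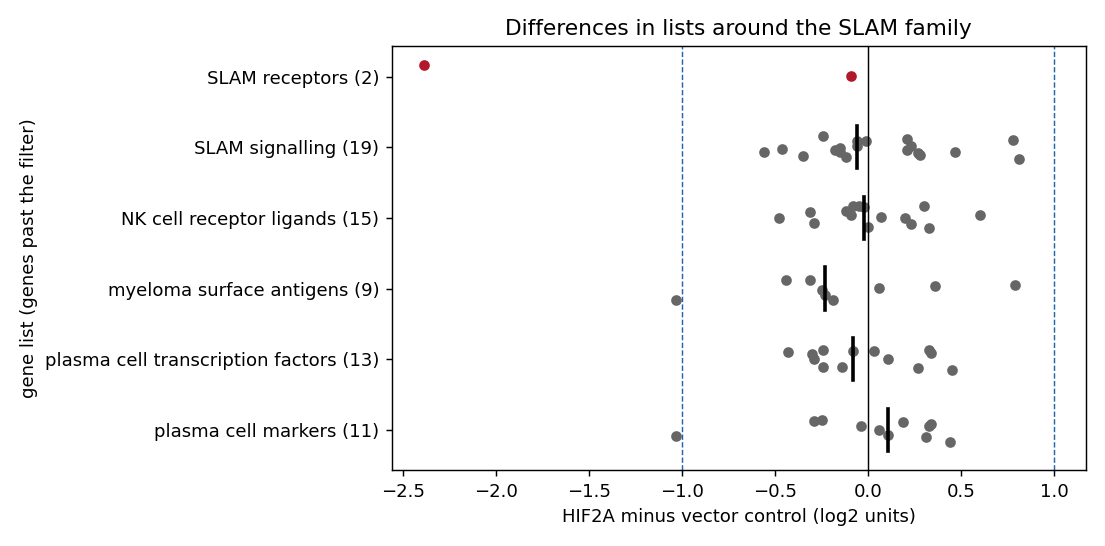
HIF2A minus vector control differences in log2 units of the genes past the filter in 6 lists, 1 point per gene, with the number of genes in brackets, the list median as a black bar (none for the 2 SLAM receptors) and a 2-fold difference as dashed lines. SLAMF7 at -2.39 and TNFRSF17 at -1.03, which stands in 2 lists, are the points beyond the dashed lines on the deposited signals.

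The 5 genes past the filter with the pair of signals nearest to that of SLAMF7 were sought by Euclidean distance over the 2 arrays, and a tie made them 6. They were MT1X, a metallothionein gene, at a distance of 0.43, NIBAN1, a stress-induced gene, at 0.50, SPATS2L at 0.71, the lysine-degrading enzyme gene ALDH7A1 at 0.74, and DERA, the gene of a deoxyribose-phosphate aldolase, and the small nucleolar RNA SNORA5A at 0.76 each. ALDH7A1 had 4.38 in the HIF2A array and 7.36 in the vector control array and was the gene with the lowest difference, -2.98. SPATS2L had 4.45 in the HIF2A array and 5.95 in the vector control array. NIBAN1 lies on chromosome 1, as SLAMF7 does, and the others on chromosomes 16, 2, 5, 12 and 7. With 2 arrays this likeness holds no more than the 2 signals.

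The labels were checked on the same arrays. EPAS1 had 9.05 in HIF2A cells against 3.70 in vector control cells. HIF1A had 6.99 in HIF2A cells and 6.92 in vector control cells, and ARNT, the gene of the shared partner, 7.60 in HIF2A cells and 7.44 in vector control cells. All 11 markers of plasma cells passed the filter, with a log2 summed signal of 13.24 in the HIF2A array and 13.25 in the vector control array. Such a sum of linear signals is led by the brightest genes. The differences in this list ran from -1.03 at TNFRSF17 to 0.44 at MZB1. The marker counts that follow are of genes with a value. Among markers of other blood cells 4 of 14 for T and NK cells, 3 of 11 for B cells and 4 of 12 for myeloid cells passed it, with summed signals of 7.45, 7.10 and 7.56 in the HIF2A array and 7.43, 7.34 and 7.50 in the vector control array. Under the olfactory receptor level in both arrays were 8, 4 and 6 of these. Of stromal markers 2 of 8 passed the filter and 5 were under that level, and of endothelial and erythroid markers 1 of 6 and 4. The summed signals of the last 2 lists were 6.51 and 6.13 in the HIF2A array and 6.49 and 6.13 in the vector control array.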

How the data were processed

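For 2 arrays of human LP-1 cells the authors deposited 1 log2 signal for each probe set. The submitters' processing notes name Affymetrix Expression Console. How probes were summarised, the software version and the genome build are not given in the sources used. A base of 2 was inferred, as the highest deposited value, 13.97, is above the natural log of the largest scanner reading, 11.09. Of 28869 probe sets, 19310 carry 1 symbol in the array annotation, and 19279 of these were matched to RefSeq by Entrez number. Each gene took its probe set with the highest mean, which involves no choice for the SLAM family. The array annotation's build is unknown, so RefSeq gave gene order only and the promoters' own coordinates.

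The members and gene lists were chosen with earlier results of these data known. Named are all members, up to 3 genes per list and direction past the filter, the 5 nearest to SLAMF7, EPAS1, HIF1A and ARNT, and 2 genes on each side of SLAMF7. Exceptions are marked. A planned comparison of protein sequences was not made here. The code was tested on simulated data. Python 3.11.15, numpy 2.4.6, pandas 2.3.3, statsmodels 0.14.6 and matplotlib 3.10.9 were used.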

Additional observations from a re-analysis of the deposited data

How the results depend on the processing

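SLAMF7 stayed 2-fold or more lower in HIF2A cells in all 7 other settings of scaling, offset, floor and probe set, from -2.43 with loess centring to -1.36 with 32 added on the linear scale, which shrinks dim signals by construction. Each member has 1 probe set, so the settings of probe sets could not move its value. The floor could not move SLAMF7 either, as both its signals lay above that level. Median centring shifted all genes by the same amount. The 56 values of the 8 other members ran from -0.33 to 0.30. The count of members at least 2-fold lower was 1, and of those higher 0, in each setting tried, 1.5-fold and 3-fold included. The median of the neighbours of SLAMF7 ran from -0.08 to 0.19 over 12 settings, the highest with 10 genes on each side. Over all genes, 24 were lower and 18 higher with 32 added, 546 and 650 at 1.5-fold, and 15 and 14 at 3-fold, against 84 lower and 81 higher. Of 55 list values 0, and of 462 values of 66 other genes, those the naming rule admits and the 4 phosphatase genes, 11 moved by the robust SD of the differences. With 32 added, TNFRSF17 came to -0.93 and was no longer 2-fold lower. The same held for NIBAN1 at -0.95, SPATS2L at -0.80, and DERA and SNORA5A at -0.76 each. MT1X at -1.02 and ALDH7A1 at -1.89 stayed 2-fold lower. List medians near 0 changed sign in some settings, and the SLAM signalling and NK ligand lists had means of 0.05 and 0.02 where their medians were -0.06 and -0.02. No paired analysis was possible because each group has 1 array, and for the same reason no array could be left out.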

Other observations

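SLAMF7 was not the only gene of chromosome 1 with a low difference, and the others were looked up after their values were seen. Of 1138 genes past the filter on chromosome 1, 7 were 2-fold or more lower in HIF2A cells, which is 0.615%, against 0.732% over all chromosomes. Besides SLAMF7 they were S100A10, GLUL, NIBAN1, RNU5D-1, S100A11 and PRDM16-DT. The nearest to SLAMF7 was GLUL, the glutamine synthetase gene, 91 genes past the filter away, with 5.32 in the HIF2A array and 7.12 in the vector control array. The median difference of the chromosome was 0.05.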
